A study of Mus musculus with 9 samples.

Results

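Cytosolic ribosomal protein genes encode the protein subunits of the ribosome that works in the cytoplasm. They were taken from the gene tables by symbol: Rpl or Rps followed by a digit, plus Rpsa, Rplp0, Rplp1 and Rplp2, without the ribosomal S6 kinases and without symbols that end in "-ps" and a number, which mark pseudogenes. The rule found 86 genes among 21909 gene symbols, 52 named for the large and 34 for the small subunit. Of these, 78 carry the plain name of a subunit, and 8 are paralogs by name (Rpl3l, Rpl7l1, Rpl10l, Rpl22l1, Rpl36al, Rpl39l and Rps27l) or, for Rps19bp1, a protein that binds a ribosomal protein and is no part of the ribosome. Each gene had 1 row and the status OK in every table.

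The RNA came from 3 cell populations that were sorted from main olfactory epithelium at 4 weeks of age, and 1 poly-A library was sequenced for each. Horizontal basal cells (HBC) were the cells bound by a PE-labelled antibody to CD54, the product of Icam1. Globose basal cells (GBC) were the cells positive for Neurog1-EGFP, a green fluorescent reporter of a transcription factor of neuronal precursors. Mature olfactory sensory neurons (mOSN) were the cells positive for OMP-ires-EGFP, a reporter of the olfactory marker protein gene. The sources used here do not give sex, strain or the number of mice behind a library. ScriptSeq was the kit for HBC, while GBC and mOSN were prepared with Illumina's mRNA kit, so that kit and population cannot be told apart wherever HBC is compared. The 6 other samples of the series measured 5-hydroxymethylcytosine and 5-methylcytosine and were not analysed here. Since no library was repeated, differences between them cannot be set against a spread between replicates, and p-values are not given.

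A ribosome joins a small subunit, which holds the mRNA and reads its codons, to a large subunit, which links amino acids and lets the growing chain leave through a tunnel. Cells make the subunit proteins in nearly equal numbers, and proteins in excess are degraded. Their mRNAs are among the most abundant of a growing cell, and many begin with a run of C and T at the cap, through which the kinase mTOR regulates their translation.

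The values were FPKM, fragments scaled to the length of the transcript and to the mapped fragments of the library. For a given gene, 1 FPKM did not stand for the same number of fragments in each library, with a wider spread across genes when HBC was involved, which limits comparisons of level. The intervals imply 18123443 fragments for HBC, 18087564 for GBC and 16516700 for mOSN. Each sort gene was highest in its own library: Icam1 reached 136 FPKM in HBC (under 1 FPKM elsewhere), Neurog1 163 FPKM in GBC (under 0.1 FPKM elsewhere) and Omp 1487 FPKM in mOSN. Some Omp was also found in GBC (427 FPKM) and in HBC (71.6 FPKM). Markers of other cells were uneven: the sum over 14 macrophage and antigen-presenting cell markers was 5455 (HBC), 6.97 (GBC) and 5.48 FPKM (mOSN), and all 14 reached 1 FPKM in HBC, where 3 did in GBC and 1 in mOSN. The sum over 10 sustentacular cell markers was 2005 (HBC), 67.8 (GBC) and 254 FPKM (mOSN), and that over 12 lymphocyte markers 109, 3.37 and 0.934 FPKM. The part of these cells in the HBC values of the ribosomal protein genes was not tested.

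The ribosomal protein genes together took the largest share of the GBC library and the smallest of the mOSN library. Their summed level was 5266 FPKM in HBC, against 7403 in GBC and 3446 in mOSN. As a share of the FPKM of all genes this was 3.10% in HBC, 4.03% in GBC and 1.44% in mOSN, so the share was 2.79 times as large in GBC as in mOSN. Counted as fragments, they took 0.915% (165793 fragments), 1.09% (197854) and 0.406% (67083). In bulk libraries such as these, fewer cells of a type and less RNA per cell cannot be told apart. The median gene of the 86 had 27.1 (HBC), 30.5 (GBC) and 18.2 FPKM (mOSN), and 100 FPKM or more were reached by 18, 30 and 10 genes. The order of the 86 levels was most alike between GBC and mOSN (Spearman's rho across genes 0.97) and less alike when HBC was paired with GBC (0.87) or with mOSN (0.86). These rho values describe 86 genes within the same libraries, and genes are not independent replicates.

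**Figure D1:**
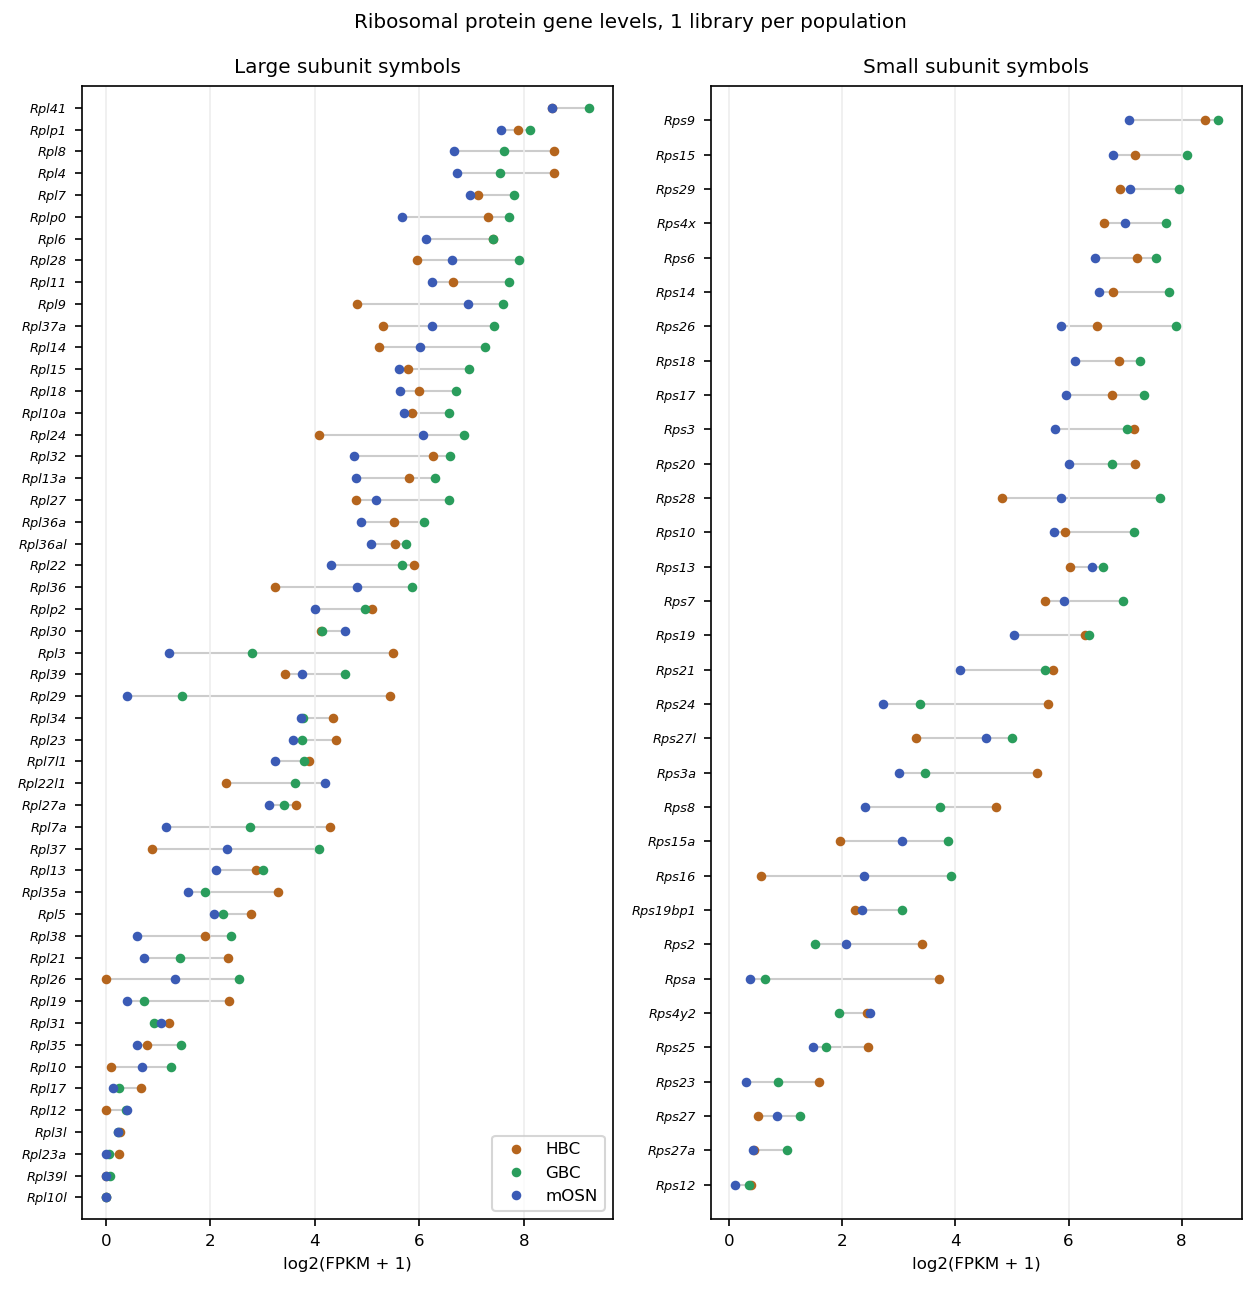
FPKM of ribosomal protein genes on the log2(FPKM + 1) scale, with large subunit symbols on the left, small subunit symbols on the right and 1 dot per library (HBC, GBC, mOSN). Genes are ordered by their mean, the grey line joins the lowest and highest library, and mOSN is the lowest dot for most genes.

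Both subunits shared this order of the libraries. The 52 large subunit symbols summed to 2870 (HBC), 3947 (GBC) and 1979 FPKM (mOSN). The 34 small subunit symbols summed to 2396, 3455 and 1468 FPKM. The large subunit thus held 54.5% (HBC), 53.3% (GBC) and 57.4% (mOSN) of the summed FPKM. The median small subunit gene was higher than the median large subunit gene in every library. It had 50.4 against 19.0 FPKM in HBC, 78.1 against 16.3 in GBC and 30.8 against 13.8 in mOSN. These medians depend on genes of low value: of the 24 genes with a mean under 5 FPKM, 16 were large and 8 small subunit symbols. Over genes with a mean of at least 20 FPKM, both subunits had similar levels per gene. The 24 large subunit genes of that level summed to 2635 (HBC), 3789 (GBC) and 1864 FPKM (mOSN). The 21 small subunit genes summed to 2288, 3387 and 1429 FPKM.

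Rpl41 was among the 3 highest genes of every library, while the other leading genes differed. Rpl41 (chromosome 10, 127985166 to 127986224, mm9), the smallest protein of the ribosome, which bridges the subunits, had 372 FPKM in HBC (deposited interval 362 to 383), 606 in GBC (595 to 617) and 370.5 in mOSN (360.1 to 381). It was first in GBC and mOSN. Rps9, at the mRNA entry channel, had 342 (HBC), 398 (GBC) and 134 FPKM (mOSN), and was the second in GBC only. Rplp1, an acidic protein of the stalk that recruits translation factors, had 237, 276 and 189 FPKM. Rps29, a small zinc-binding protein, was among the top 3 in mOSN, with 119.7 (HBC), 247 (GBC) and 136 FPKM (mOSN). In HBC the first places went instead to Rpl8 and Rpl4, core proteins of the large subunit. Rpl8 had 383 (HBC), 196 (GBC) and 100.5 FPKM (mOSN), and Rpl4 had 379, 186 and 105 FPKM. The 5 highest genes of each library held 32.5% (HBC), 24.6% (GBC) and 27.7% (mOSN) of the summed FPKM.

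At the other end, genes of proteins that every ribosome contains were listed at or near 0. Of the 86 genes, 15 (HBC), 12 (GBC) and 18 (mOSN) stood under 1 FPKM, and 3, 1 and 3 at exactly 0. Rpl12, a protein at the base of the stalk, was listed at 0 in HBC and had 0.304 FPKM in GBC and 0.331 in mOSN. Rpl23a, at the exit tunnel, had 0.195 (HBC) and 0.0423 FPKM (GBC) and was listed at 0 in mOSN. Rpl17, also at the tunnel, had 0.604, 0.190 and 0.0976 FPKM, and Rps12 had 0.304, 0.271 and 0.0715 FPKM. Rpl10, which joins the large subunit late in its assembly, had 0.0678 (HBC), 1.38 (GBC) and 0.616 FPKM (mOSN). Rps27a, made as a fusion with ubiquitin, had 0.360, 1.03 and 0.336 FPKM. A value near 0 for such genes is what the table lists and does not show that the mRNA was absent.

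Ribosomal protein genes have many processed pseudogenes, copies of the mRNA in the genome that can draw reads away from the parent gene, and the sources used here do not say how reads with several matches were counted. Among the 78 plain names, the 21 with a mean under 5 FPKM over the 3 libraries had a median of 6 pseudogenes named after them in RefSeq. That median was 2 for the 20 genes between 5 and 50 FPKM and 1 for the 37 genes at 50 FPKM or more. Spearman's rho between mean FPKM and the number of named pseudogenes across the 78 genes was -0.50, a description of genes that share their libraries. Of the 86 genes, 35 overlapped another gene row, mostly small nucleolar RNAs in introns. Gm15772, which overlaps Rpl26, had 20.03, 17.3 and 12.0 FPKM, where Rpl26 had 0.00138, 4.83 and 1.51 FPKM. Nor do the sources used here give the counting strand, so values of genes with pseudogenes or overlapping rows are uncertain.

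Promoter letters are given because the genes differed together between GBC and mOSN, as described below. RefSeq (GRCm38.p6) gave a 300-base window, 250 bases before to 50 after the start, for 64 of the 86 genes. Within 20 bases on each side of the RefSeq start, a run of 8 or more C or T was found in 30 of the 64 genes (46.9%), against 18.3% of 17492 protein-coding genes in the same table. A run of 8 or more A or G, the same letters on the other strand, was found in 5 of the 64 (7.81%), against 19.8% of all. A run of at least 5 C or T that crossed the start itself was found in 20 of the 64 (31.2%), against 10.2%. The letters CCGGAAG, a core of sites for ETS factors, stood on either strand of the 300-base window in 25 of the 64 (39.1%), against 12.9% of all. AAGATGGC, the core of YY1 sites, stood there in 6 of the 64 (9.38%) against 3.57%, and TATAAA in 7 of the 64 (10.9%) against 14.8%. Each match is a description of letters and no evidence of binding. Windows of 40 bases around the start are printed for genes on which the results below turn, 5′ to 3′, with the longest run of C and T in capitals.
Rplp0 (chr5:115559447-115559486, plus strand): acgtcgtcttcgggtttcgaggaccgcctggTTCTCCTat
Rps26 (chr10:128626487-128626526, minus strand): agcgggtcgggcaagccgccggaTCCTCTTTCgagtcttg
Rps9 (chr7:3704021-3704060, plus strand): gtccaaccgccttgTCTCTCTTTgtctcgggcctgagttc
Rps6 (chr4:86857348-86857387, minus strand): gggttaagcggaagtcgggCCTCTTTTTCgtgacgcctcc
Rpl15 (chr14:18270967-18271006, minus strand): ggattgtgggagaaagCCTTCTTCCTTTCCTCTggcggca
Rpl41 (chr10:128549149-128549188, minus strand): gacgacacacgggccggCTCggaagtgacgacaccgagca
Rpl22 (chr4:152324416-152324455, plus strand): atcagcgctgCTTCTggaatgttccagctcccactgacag
Rpl22l1 (chr3:28805488-28805527, plus strand): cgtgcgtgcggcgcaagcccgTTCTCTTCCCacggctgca
The run was 17 bases in Rpl15, 10 in Rps6 and Rpl22l1, 9 in Rps26 and Rps9, 7 in Rplp0, 5 in Rpl22 and 3 in Rpl41. Rpl41, the gene with the highest FPKM of the group in GBC and mOSN, is thus among those without a long run at the listed start.

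Between GBC and mOSN, made with the same kit, the ribosomal protein genes were lower in mOSN almost without exception. Ratios were taken as log2((FPKM + 1)/(FPKM + 1)), a scale that understates the change of low genes, and genes with at least 5 FPKM in either library were compared. Of the 61 ribosomal protein genes that met this, 34 had a level in mOSN at least 2-fold below that in GBC and 0 at least 2-fold above it. Among all 8678 genes compared, 9.23% were at least 2-fold lower and 25.2% at least 2-fold higher. The median log2 ratio was -1.09 for the 61 genes, with quartiles at -1.38 and -0.72, and 0.29 for all genes compared. Below 0 stood 59 of the 61, and the exceptions were Rpl22l1 and Rpl30 under each scaling tried. The 45 genes with a mean of at least 20 FPKM were all below 0, 29 of them at least 2-fold lower, with a median of -1.20. All 2035 genes of that mean that were compared had 551 higher, 198 lower and a median of 0.35. With libraries rescaled to a common sum, 51 ribosomal protein genes were at least 2-fold lower and 0 higher, while all genes then split into 16.1% lower and 16.3% higher. The remaining 25 of the 86 genes were under 5 FPKM in both libraries and were not compared.

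**Figure D2:**
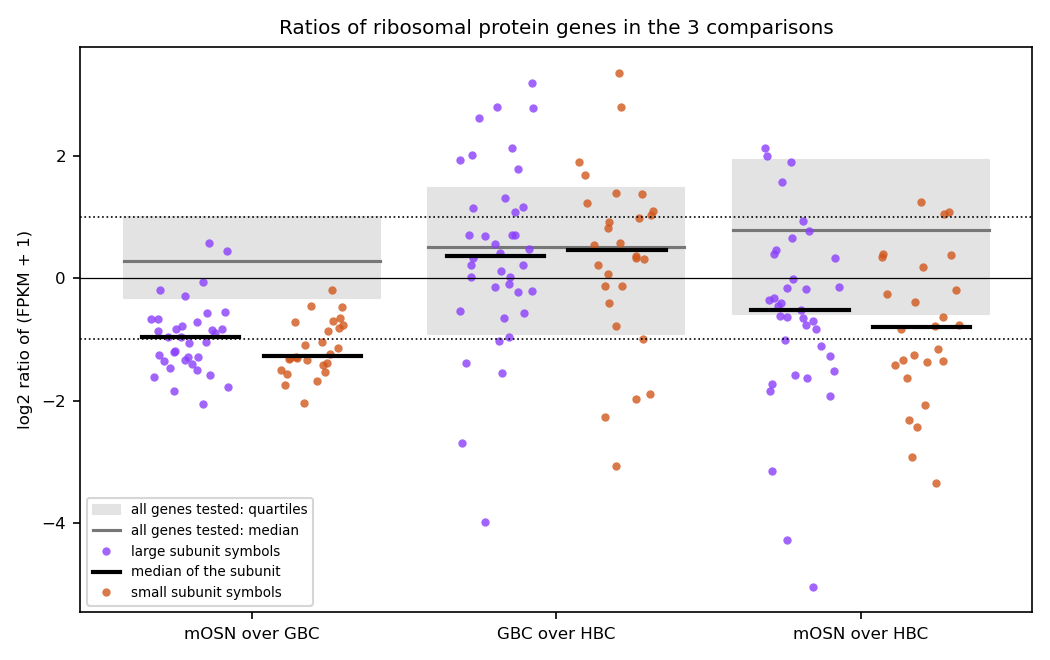
log2 ratio of (FPKM + 1) in the 3 comparisons, with 1 dot per ribosomal protein gene of at least 5 FPKM in either library, split by subunit; black bars are subunit medians, grey bands and lines the quartiles and median of all genes compared, and dotted lines mark 2-fold. In mOSN over GBC both subunit medians (-0.96 and -1.27) lie below the grey band, while in GBC over HBC they lie inside it.

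The same step was seen in both subunits. Of 35 large subunit genes compared, 17 were lower by at least 2-fold in mOSN, with a median log2 ratio of -0.96. Of 26 small subunit genes compared, 17 were at least 2-fold lower (median -1.27). The medians thus differed by 0.31, a gap that became 0.03 when the fragments of a gene were turned into FPKM by the same factor in all libraries (1 conversion factor per gene). Over the 45 genes of higher level the medians were -1.12 for 24 large and -1.29 for 21 small subunit genes.

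At the mRNA exit site of the ribosome, Rps14, Rps26 and Rps28 were each lower by at least 2-fold in mOSN, with log2 ratios of -1.24, -2.03 and -1.74. Rps26 (chromosome 10, 128061585 to 128063562, mm9), a protein that touches the mRNA at this site, had 89.2 FPKM in HBC (interval 83.7 to 94.7), 237 in GBC (229.5 to 245) and 57.3 in mOSN (53.0 to 61.5). Rps28, its neighbour at the exit site, had 27.2 (HBC), 195 (GBC) and 57.6 FPKM (mOSN). Rps14 had 109, 218 and 91.6 FPKM. All 3 genes were highest in GBC. At the mRNA entry site, Rps9 and Rps3 were both at least 2-fold lower in mOSN than in GBC, with log2 ratios of -1.57 and -1.29. Rps3, which also takes part in DNA repair, had 142 (HBC), 131 (GBC) and 53.0 FPKM (mOSN). Rps2, the other entry protein, had 9.66, 1.86 and 3.20 FPKM and was under the level needed for mOSN against GBC.

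The proteins of the stalk, which binds the GTPases of translation, differed in the size of their ratios. Rplp0 (chromosome 5, 116009476 to 116013738, mm9), the protein that anchors the stalk, had 157 FPKM in HBC (interval 154 to 161), 210.5 in GBC (207 to 214) and 50.03 in mOSN (47.7 to 52.4). Its log2 ratio of -2.05 was the lowest of the 61 genes, and its mOSN interval lay far below the other intervals. Rplp1 had a log2 ratio of -0.55. Rplp2, the partner of Rplp1, had 33.4, 30.0 and 15.0 FPKM and a log2 ratio of -0.96. All 3 were lowest in mOSN.

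In the particle that carries 5S RNA and, when free, binds the p53 regulator Mdm2, Rpl11 had 98.5 (HBC), 209 (GBC) and 74.6 FPKM (mOSN), a log2 ratio of mOSN over GBC of -1.47. Its partner Rpl5 was listed at 5.87, 3.76 and 3.22 FPKM. At the exit tunnel, 3 of 9 genes reached the level for this comparison. Rpl4 had a log2 ratio of -0.82, Rpl39, which lines the tunnel, -0.82 (9.79 (HBC), 23.0 (GBC) and 12.6 FPKM (mOSN)), and Rpl22, on the outside near the tunnel, -1.36. Of the bridge proteins, Rpl41 had a log2 ratio of -0.71 and Rpl24 of -0.78.

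Further genes with known roles beyond structure were also lower in mOSN. Rps6, the target of the S6 kinases, had 148 (HBC), 186 (GBC) and 87.0 FPKM (mOSN) (log2 ratio -1.09). Rpl13a, which can leave the ribosome to silence inflammatory mRNAs, had 55.2, 77.4 and 26.8 FPKM (-1.496). Rpl32 had 75.7, 95.1 and 25.9 FPKM (-1.84), and Rpl37, a zinc-binding protein, 0.852, 15.9 and 3.96 FPKM (-1.77). These 2 genes complete the 4 plain names with the lowest ratios. Of the 2, Rpl37 passed the filter through GBC alone.

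The genes at the upper end differed little between GBC and mOSN. Rpl30, which also binds the RNA element for selenocysteine insertion, had 16.4 FPKM in HBC (interval 14.8 to 17.9), 16.6 in GBC (14.2 to 19.0) and 23.0 in mOSN (20.4 to 25.7), a log2 ratio of 0.45. Its GBC and mOSN intervals did not overlap. However, Gm12191, whose row overlaps Rpl30, had 7.65 FPKM in GBC, against 1.49e-07 in HBC and 4.82e-05 in mOSN. Whether reads of Rpl30 were counted there in GBC was not tested, so the direction of Rpl30 is uncertain. Rpl34 had 12.8 (GBC) and 12.3 FPKM (mOSN), and Rpl23, another inhibitor of Mdm2, 12.5 and 10.9 FPKM. Intervals of GBC and mOSN overlapped for both, and also for Rpl27a, with 9.63 and 7.68 FPKM. Rps13 had 64.3 (HBC), 96.6 (GBC) and 84.8 FPKM (mOSN), the smallest drop among the genes of at least 20 FPKM (-0.19). Intervals cover counting error only.

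**Figure D3:**
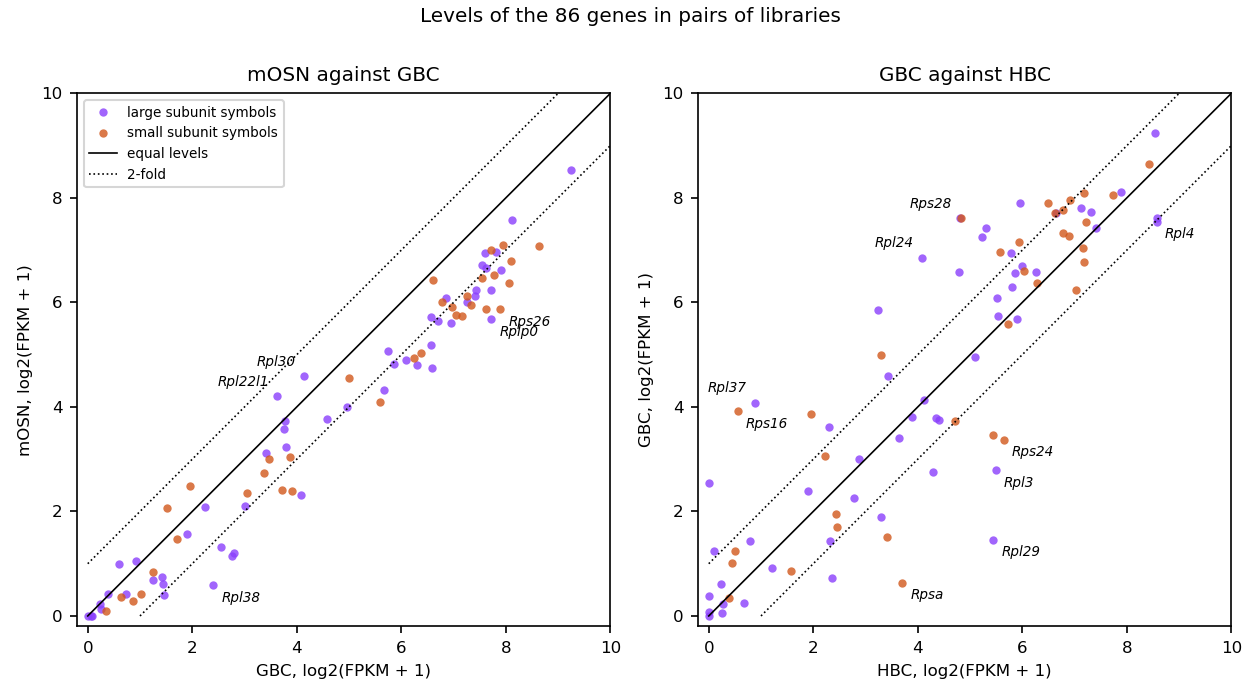
Levels of the 86 genes on the log2(FPKM + 1) scale, mOSN against GBC on the left and GBC against HBC on the right, 1 dot per gene, with the line of equal levels and dotted lines at 2-fold. On the left the dots form a narrow band below the line (rho 0.97), and on the right they scatter on both sides (rho 0.87).

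The make-up of the group, meaning each gene's share of the summed FPKM of the 86, was more alike between GBC and mOSN than between either and HBC. Over the 45 genes with a mean of at least 20 FPKM, the standard deviation across genes of the log2 share ratio was 0.41 for mOSN over GBC. In that comparison 38 of the 45 shares were within 1.5-fold and 0 differed by more than 2-fold. The widest were Rps13, whose log2 share ratio was 0.91, and Rplp0 at -0.97. For GBC over HBC the standard deviation was 1.09, with 21 genes within 1.5-fold and 13 beyond 2-fold. For mOSN over HBC it was 1.14, with 18 and 17 genes. Rps24 had the lowest share ratio in both comparisons with HBC (-2.88 and -2.51). These comparisons share libraries with each other and, with HBC, the change of kit.

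Between HBC and GBC the ribosomal protein genes went both ways. Of 66 compared, 21 were at least 2-fold higher in GBC and 9 at least 2-fold lower. Among all 9101 genes compared, 36.8% were at least 2-fold higher and 24.1% lower. The median log2 ratio of GBC over HBC was 0.39 for the 66 genes and 0.51 for all genes. The shares of ribosomal protein genes called were no higher than those of all genes in either direction. The large subunit had 12 higher and 5 lower of 38 (median 0.37), and the small subunit 9 and 4 of 28 (median 0.46). With median-of-ratios scaling the counts turned to 12 higher and 17 lower and the median to -0.17, where all genes split into 24.5% higher and 31.8% lower with a median of -0.06. The 45 genes of at least 20 FPKM had 16 higher and 2 lower, and a median of 0.58. Among all 2163 genes of that mean that were compared, 994 were higher and 356 lower, with a median of 0.84, above that of the ribosomal protein genes.

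Abundant genes were among those higher in GBC than in HBC. Rpl9 (chromosome 5, 65779603 to 65782670, mm9), a protein near the factor-binding site, had 26.9 FPKM in HBC (interval 25.2 to 28.7), 194 in GBC (188 to 200.3) and 122 in mOSN (116 to 127). Its log2 ratio was 2.80, as was that of Rps28. Rpl24, a bridge protein, had 15.9, 115 and 66.6 FPKM, and Rpl36 had 8.47, 57.1 and 27.1 FPKM. Rpl9, Rpl24, Rpl36 and Rps28 were thus lowest in HBC and highest in GBC. Rps16 had 0.470 (HBC), 14.1 (GBC) and 4.23 FPKM (mOSN) (log2 ratio 3.36), and Rpl37, given above, had a ratio of 3.19. The HBC values of Rps16 and Rpl37 rested on 11 and 31 implied fragments.

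The 9 genes at least 2-fold lower in GBC than in HBC were also at least 2-fold lower in mOSN than in HBC. Both ratios use the same HBC values, so the second adds no independent support. Rpl29, Rpsa, Rps2 and Rpl35a passed the filter through HBC alone, as did Rpl3 and Rpl7a in the comparison with mOSN. Rpl29 (chromosome 9, 106331870 to 106333898, mm9), a heparin-binding protein at the surface of the large subunit, had 42.4 FPKM in HBC (interval 39.4 to 45.5), 1.75 in GBC (1.31 to 2.20) and 0.318 in mOSN (0.0775 to 0.558). Rpsa, known also as the laminin receptor, had 12.0, 0.555 and 0.288 FPKM. Rpl3, near the site of peptide bond formation, had 43.9, 5.93 and 1.32 FPKM. Rps24 had 49.0, 9.34 and 5.62 FPKM, and Rps3a 42.3, 10.1 and 6.99 FPKM. Rpl7a had 18.7, 5.76 and 1.21 FPKM, and Rpl35a 8.76, 2.74 and 1.96 FPKM. Rps2 and Rpl4, given above, complete the 9. Their log2 ratios of GBC over HBC ran from -3.98 for Rpl29 to -1.02 for Rpl4. Of these genes, Rpl4 and Rps24 had a mean of at least 20 FPKM.

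Between HBC and mOSN, 7 of 63 ribosomal protein genes were higher in mOSN by at least 2-fold and 24 lower, where all 9779 genes compared had 44.4% higher and 21.4% lower. The median log2 ratio was -0.63 against 0.79 for all genes. With libraries rescaled to a common sum the counts were 4 higher and 35 lower, and all genes had 32.6% higher and 27.5% lower. Large subunit genes had a median of -0.51 and small subunit genes of -0.80, an order that reversed with 1 conversion factor per gene, where large minus small was -0.14. The 7 genes higher in mOSN were Rpl9, Rpl24, Rpl36, Rps28, Rps15a, Rps27l and Rpl22l1. Rps15a had 2.89 (HBC), 13.6 (GBC) and 7.28 FPKM (mOSN). Across all 86 genes, the highest library was GBC for 49, HBC for 31 and mOSN for 5, and Rpl10l was listed at 0 in all. The lowest was mOSN for 56, HBC for 26 and GBC for 3.

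Over the 45 genes with a mean of at least 20 FPKM, 3 orders of the libraries occurred, and GBC was the lowest in none of them. The most frequent, with 23 genes, was mOSN below HBC below GBC. It included Rps15, near the decoding site, with 144 (HBC), 274 (GBC) and 109.7 FPKM (mOSN). Rps19, the gene most often mutated in Diamond-Blackfan anaemia, followed it with 77.3, 81.6 and 31.8 FPKM, but its HBC and GBC intervals overlapped. Rpl15, an early protein of large subunit assembly, had 53.8, 122 and 47.7 FPKM, but its log2 ratio of GBC over HBC turned from 1.17 to -0.30 with 1 conversion factor per gene. Rps10 had 60.1, 142 and 52.3 FPKM. Each of these 4 genes was lower by at least 2-fold in mOSN than in GBC.

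HBC was the lowest of the 3 libraries for 13 of the 45 genes. Besides the genes given above, these were Rps4x, Rpl28, Rpl37a, Rpl14, Rpl27, Rps7 and Rps27l. For Rps4x the log2 ratio of GBC over HBC went from 1.09 to -0.016 with 1 conversion factor per gene, so its place is unsettled. Rpl28 had 61.3 (HBC), 238 (GBC) and 97.4 FPKM (mOSN). Rpl37a, a zinc-binding protein of the large subunit, had 38.4, 171 and 74.7 FPKM, and Rpl14 36.4, 151 and 63.2 FPKM. Rpl27 and Rps7 had 26.7, 94.3 and 35.2 FPKM and 46.9, 124 and 59.6 FPKM. In this set mOSN stood between HBC and GBC.

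HBC was the highest library for 9 of the 45 genes, each with GBC next and mOSN last. Among them were Rpl4, Rpl8, Rpl22, Rplp2, Rps3, Rps20, Rps21 and Rps24. Rps20 had 144 (HBC), 108 (GBC) and 63.5 FPKM (mOSN). Rps21 had 51.8, 47.1 and 16.0 FPKM. The HBC and GBC intervals overlapped for Rps21 and Rplp2. Over the 41 genes of lower mean this order was the most frequent, with 20 genes.

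Paralogs of ribosomal proteins can replace the parent protein in some tissues, and 8 pairs could be compared. These were the paralogs by name with their parents and Rps4y2 with Rps4x. Rps4y2 carries a plain name and was also counted among the 78 plain names. Rpl22 and Rpl22l1 moved in opposite directions between GBC and mOSN. Rpl22 had 58.4 FPKM in HBC (interval 56.8 to 60.1), 50.2 in GBC (48.3 to 52.1) and 19.0 in mOSN (17.7 to 20.2). Rpl22l1 (chromosome 3, 28704433 to 28706337, mm9) had 3.93 FPKM in HBC (3.15 to 4.70), 11.3 in GBC (8.87 to 13.7) and 17.4 in mOSN (14.8 to 20.1). Rpl22l1 thus made up 6.30% (HBC), 18.4% (GBC) and 47.9% (mOSN) of the pair. The 3 levels of Rpl22l1 rested on 102, 86 and 172 implied fragments. With 1 conversion factor per gene its log2 ratio of mOSN over GBC went from 0.58 to 1.03, and that of GBC over HBC from 1.32 to -0.21, so that its order between HBC and GBC is unsettled.

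Rpl36al and Rps27l held a like share of their pairs in each library. Rpl36al had 45.2 (HBC), 52.8 (GBC) and 32.8 FPKM (mOSN), beside 44.9, 67.1 and 28.7 FPKM of Rpl36a, or 50.1%, 44.0% and 53.3% of the pair. Rps27l, a p53 target, had 8.89, 30.9 and 22.4 FPKM, beside 0.421, 1.38 and 0.801 FPKM of Rps27. It made up 95.5%, 95.7% and 96.5% of that pair, in which Rps27 is one of the genes listed near 0. Rpl7l1, which acts in ribosome assembly, had 13.8, 12.9 and 8.42 FPKM, beside 138, 223 and 124 FPKM of Rpl7. Rps4y2 had 4.38, 2.86 and 4.598 FPKM, beside 97.5, 209 and 127 FPKM of the X-linked Rps4x, and its row overlaps Tmtc1. The promoters of Rps27 and Rps27l both carry a run of 9 C or T near the start.
Rps27 (chr3:90213629-90213668, minus strand): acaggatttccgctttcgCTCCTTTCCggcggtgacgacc
Rps27l (chr9:66946066-66946105, plus strand): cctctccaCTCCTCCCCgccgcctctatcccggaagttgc

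Paralogs known from muscle or testis were near 0 in all 3 libraries. Rpl3l, the muscle paralog of Rpl3, had 0.212 (HBC), 0.179 (GBC) and 0.175 FPKM (mOSN), from 5, 6 and 3 implied fragments. Rpl39l, known from male germ cells, was listed at 0 in HBC and mOSN and at 0.0596 FPKM in GBC, from 1 implied fragment. Rpl10l, also of the testis, was listed at 0 in all 3. Rps19bp1, the binding protein, had 3.70, 7.30 and 4.12 FPKM, and was thus highest in GBC and lowest in HBC.

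**Figure D4:**
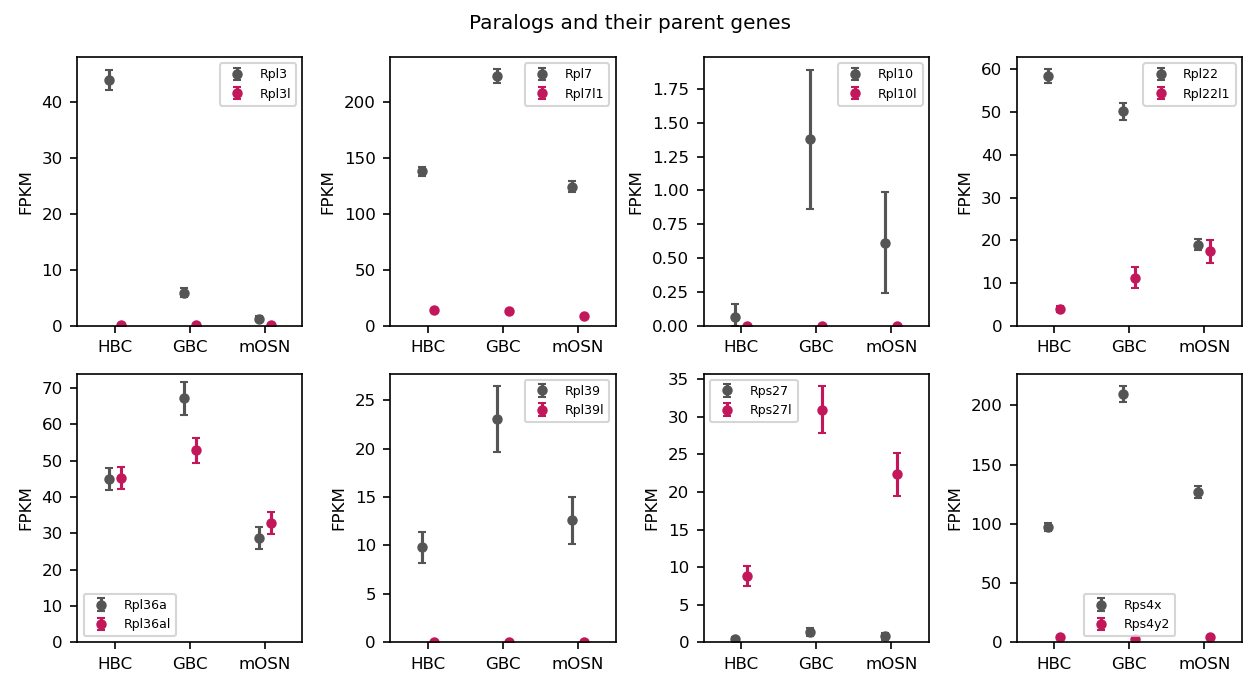
FPKM of 8 paralogs (red) and their parent genes (grey) in HBC, GBC and mOSN, with the deposited Cufflinks intervals as bars and a separate scale for each pair. Rpl22 is at 19.0 FPKM in mOSN while Rpl22l1 reaches 17.4 FPKM, and Rps27l lies above Rps27 in every library.

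Genes with a run of 8 or more C or T near the start and genes without one had overlapping ratios. For mOSN over GBC the 21 genes with a run had a median log2 ratio of -1.06 (quartiles -1.34 and -0.82), and the 25 without one -1.20 (quartiles -1.39 and -0.71). For GBC over HBC the medians were 0.37 and 0.70.

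Gnb2l1 and Fau, genes of the ribosome under other names, were also lower in mOSN than in GBC. Gnb2l1, which encodes the scaffold protein Rack1, had 225 (HBC), 189.96 (GBC) and 63.4 FPKM (mOSN). Fau, a fusion with a small subunit protein, had 0.641, 5.69 and 1.502 FPKM. Both were lower by at least 2-fold, with log2 ratios of -1.57 and -1.42. Fau passed the filter through GBC alone, so its ratio adds no support.

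Elongation factors, listed together with Tpt1, which is not one of them, were divided. Of the 10 listed genes compared between mOSN and GBC, 4 were at least 2-fold lower and 2 at least 2-fold higher (median -0.70). Tpt1 was among the 4 lower genes. All genes compared had 9.23% lower and 25.2% higher, with a median of 0.29. The share of higher genes in the list was thus below that of all genes. Eef1a1, which brings aminoacyl-tRNA to the ribosome, had 1141 (HBC), 1118 (GBC) and 508 FPKM (mOSN). Eef1a2, its paralog of neurons and muscle, had 3.82, 52.2 and 217 FPKM. Eef2, the translocase, had 447, 457 and 221 FPKM, and Tpt1, which like the ribosomal proteins has a C and T start, 2.38, 19.2 and 4.46 FPKM. Eif5a2, a paralog of Eif5a, was the other gene that was higher in mOSN, with 1.22, 3.04 and 12.98 FPKM. Eif5a2 passed the filter through mOSN alone, and Tpt1 through GBC alone.

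In mOSN over GBC, further lists had medians closer to 0 than those of the ribosomal protein genes and the elongation factor list. Of 38 initiation factors, 1 was at least 2-fold higher and 2 lower in mOSN (median -0.13). The higher one was the helicase Eif4a2, with 33.0 (GBC) and 85.4 FPKM (mOSN), and the lower ones were Eif3k (64.3 and 30.6 FPKM) and Eif3d (35.1 and 16.5 FPKM). Of 59 ribosome assembly factors, 2 were higher and 0 lower (median -0.17). The higher ones were Pno1 (6.18 and 24.4 FPKM) and Dimt1 (3.46 and 11.6 FPKM), both of the small subunit's assembly. Of 70 mitochondrial ribosomal protein genes, 1 was higher and 0 lower (median -0.03). Of 74 respiratory chain genes, 9 were higher and 1 lower (median 0.46). The background for these counts is 25.2% of all genes compared going up and 9.23% going down, with a median of 0.29. Each of these lists thus had smaller shares than all genes in both directions. The respiratory chain median lay above 0.29, and those of initiation factors, assembly factors and mitochondrial ribosomal proteins below it. Between HBC and GBC the lists differed in another way: 40 of 68 mitochondrial ribosomal protein genes and 40 of 74 respiratory chain genes were at least 2-fold higher in GBC, with 0 and 2 lower and medians of 1.14 and 1.13, beside 36.8% higher, 24.1% lower and a median of 0.51 for all genes compared, and with the change of kit.

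**Figure D5:**
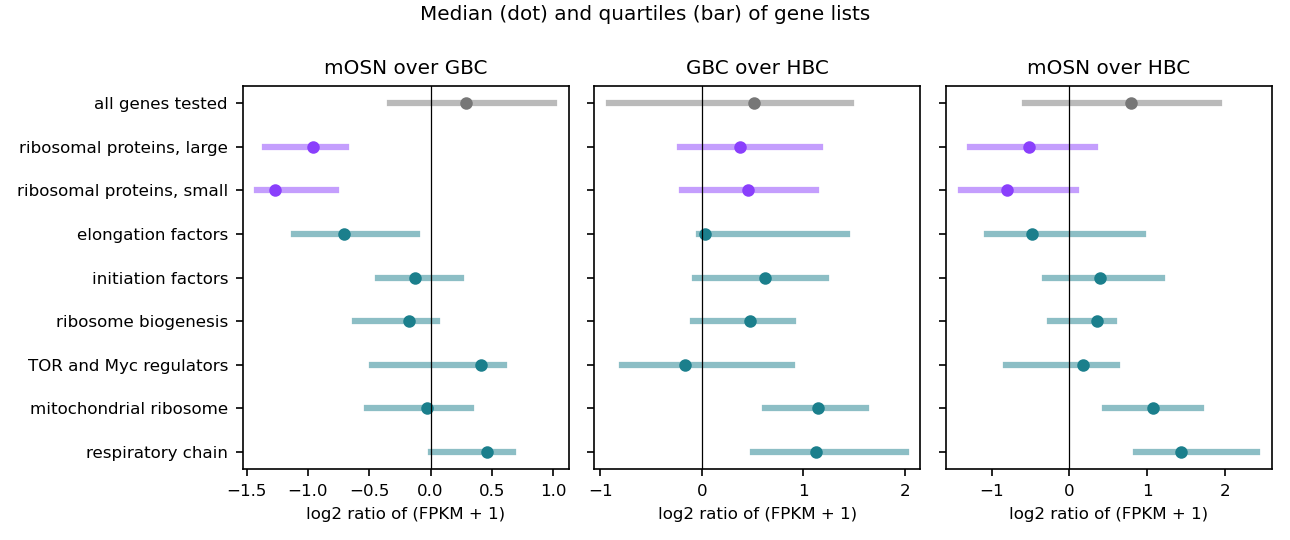
Median (dot) and quartiles (bar) of the log2 ratio of (FPKM + 1) for the ribosomal protein genes, related gene lists and all genes compared, in 3 comparisons with separate horizontal scales. In mOSN over GBC the ribosomal proteins (-0.96 large, -1.27 small) lie to the left of initiation factors (-0.13), assembly factors (-0.17) and mitochondrial ribosomal proteins (-0.03).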

How the data were processed

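Per the file headers, the authors deposited 1 table per library with the FPKM of each gene, the bounds of its interval, a status and mm9 coordinates. The submitters' processing notes name Bowtie, TopHat, Cufflinks and mm9 without versions; the sources used here give no options, annotation, counting strand or handling of reads with several matches. Rows of 1 symbol were added up, and 1 was added to each start, since printed coordinates count from 1. Fragments behind a value were inferred from its interval, with the half-width taken as 2 times the FPKM over the square root of the fragments. Among 6067 (HBC), 8272 (GBC) and 6765 (mOSN) rows of at most 100 implied fragments, 77.7%, 69.5% and 68.8% were within 0.03 of a whole number. Implied fragments are thus approximate. PCR reads without molecular identifiers are not independent molecules, so intervals cover counting error only. The conversion from fragments to FPKM differed between libraries: for the ribosomal protein genes its ratio ran from 0.526 to 1.30 for mOSN over GBC and from 0.242 to 2.74 for GBC over HBC.

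Ratios used a pseudocount of 1 FPKM and genes of at least 5 FPKM in either library; a gene was counted as higher or lower at 2-fold on that scale. With 1 library per population there was no test. Genes were named by rule: paralogs and parents, the 3 highest and 3 lowest plain names per library, the 4 largest ratios per direction and comparison, genes called in the rarer direction, 7 genes with known roles, and up to 3 genes per other list. The genes, lists and tests were chosen with earlier results of these data known, and the groups by role, the level bands and the promoter features after the values were seen. Other genes named for a role fall outside the rule. Promoters came from RefSeq (GRCm38.p6) by symbol; their coordinates are not comparable with those of mm9. The alternatives were pseudocounts of 0.1 and 5 FPKM, no filter, a filter at 20 FPKM, 2 rescalings, 1 conversion factor per gene, status and row choices and plain names only. Scripts used Python 3.11.15, pandas 2.3.3, numpy 2.4.6 and matplotlib 3.10.9 and were tested on simulated data. Some genes of the group are not reported here by name.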

Additional observations from a re-analysis of the deposited data

Results flagged for a closer look

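A pseudogene row that the rule leaves out had a signal of its own. Rps19-ps3 had 8.48 (HBC), 63.2 (GBC) and 12.7 FPKM (mOSN), beside 77.3, 81.6 and 31.8 FPKM of Rps19. It was picked out because a value lay in a row that no comparison used. Whether its reads come from Rps19 was not tested.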

How the results depend on the processing

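No paired analysis was possible because the labels carry no replicate numbers and each population has 1 library. Between mOSN and GBC, the count of ribosomal protein genes at least 2-fold lower ran from 28 (pseudocount 5 FPKM) to 51 (common sum) and the median log2 ratio from -0.84 to -1.47. The count at least 2-fold higher was 0 in all settings but 1 conversion factor per gene, where it was 1. Between GBC and HBC the count of lower genes was 17 with median-of-ratios scaling, 5 with a filter at 20 FPKM, 15 with 1 conversion factor per gene and 2 without genes of a mean under 20 FPKM, a setting added after seeing the data; the count of higher genes was 12 with median-of-ratios scaling. Between mOSN and HBC the count of higher genes was 4 with a pseudocount of 5 FPKM, 3 with 1 conversion factor per gene, 4 with a common sum and 4 with median-of-ratios scaling, and that of lower genes 39 with median-of-ratios scaling. The log2 ratio of GBC over HBC turned, with 1 conversion factor per gene, to -0.30 for Rpl15, -0.21 for Rpl22l1 and -0.016 for Rps4x. Of 602 values of single genes per comparison under 7 alternatives, 18 moved by more than 1.5-fold for mOSN over GBC, 53 for GBC over HBC (besides the 3 that turned) and 75 for mOSN over HBC. The causes were not tested, except that filters leave fewer genes. FPKM tables hold no counts, so depth is known only through the intervals.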

Other observations

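Regulators of ribosomal protein synthesis were a separate list of 30 genes around TOR and Myc, of which 21 were compared between mOSN and GBC. Of these, 2 were at least 2-fold higher and 3 lower in mOSN (median log2 ratio 0.41). All genes compared had 25.2% higher and 9.23% lower, with a median of 0.29. Any link between these regulators and the ribosomal protein genes was not tested. Mycl1, a Myc family member, had 6.91 (HBC), 12.7 (GBC) and 0.784 FPKM (mOSN). Ddit4, an inhibitor of TOR complex 1, had 23.5, 44.3 and 14.2 FPKM. Larp1, which binds mRNAs with a C and T start, was higher in mOSN, with 16.6, 12.9 and 34.4 FPKM. Myc itself had 18.9 (HBC), 0.222 (GBC) and 0.195 FPKM (mOSN). The 15 proliferation genes found in the tables summed to 55.4 (HBC), 65.1 (GBC) and 32.5 FPKM (mOSN), and single genes differed in direction. Top2a had 3.44, 9.57 and 0.403 FPKM and Mki67 4.27, 6.54 and 0.240 FPKM. Mcm3 had 8.55, 1.32 and 0.114 FPKM, and Pcna had 18.6, 18.0 and 27.2 FPKM.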
